A study of Mus musculus with 39 samples.

Results

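Thbd, Plat, Snai1, Pth1r and Vim are 5 genes known for their expression in parietal endoderm, and they were followed through every deposited peak list, with all listed peaks within the gene body and 20 kb either side of each gene taken as its peaks. These 5 genes were chosen by name out of 21938 annotated protein-coding genes, and 116 of the 432096 listed peaks fell in their windows. CUT&Tag, where transposase tethered through an antibody tags chromatin that carries a given histone mark, had been performed on cultured mouse naive extra-embryonic endoderm (nEnd) of an untreated OCT4-mCherry reporter line. The cells were sorted on OCT4-mCherry and PDGFRA into Oct4+ cells, cells positive for both (DP) and Pdgfra+ cells. H3K4me1, H3K27ac, H3K27me3 and H3K9me3 were each profiled in 3 replicates of each population, which gives 36 lists, and 3 IgG controls named in the labels were not used here. All 3 populations came from the same reporter line, no embryonic parietal endoderm was sampled, and the study describes its replicates as biological.

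Parietal endoderm is the migratory extra-embryonic layer that arises from primitive endoderm and lays down the thick basement membrane of the mouse yolk sac. Its cells leave an epithelium, take up mesenchymal traits and secrete proteases, and parathyroid hormone-related peptide is a known trigger of this step through its receptor. Of the genes followed here, Pth1r encodes that receptor, Snai1 a zinc finger repressor of epithelial genes, Vim the intermediate filament vimentin, Plat tissue plasminogen activator and Thbd thrombomodulin, a cell surface receptor for thrombin. H3K4me1 marks primed and active enhancers, H3K27ac active enhancers and promoters, H3K27me3 Polycomb-repressed chromatin and H3K9me3 constitutive heterochromatin.

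Pth1r was the gene of the 5 with stretches of 3 marks that each set all Oct4+ libraries apart from all DP and Pdgfra+ libraries. Bases over its internal promoter region were listed for H3K27ac in all 6 DP and Pdgfra+ libraries and in 0 of 3 Oct4+ libraries. Of these bases, 3899 were covered by H3K27me3 in 3 of 3 Oct4+ libraries and in 0 of 6 others. An H3K4me1 peak 5.03 to 6.92 kb upstream of the gene was likewise listed in 6 of 6 DP and Pdgfra+ libraries and in 0 of 3 Oct4+ libraries. Snai1 carried H3K4me1 in every Oct4+ library, with 1 stretch downstream listed in no other library. Such a stretch was found at 13.5% of genes measured. Thbd was listed for H3K27me3 in 4 libraries and for H3K9me3 in 6. Plat and Vim had fewer peaks, and no mark was listed at either of them in all replicates of a population. No gene passed the adjusted test for any mark, as set out after the genes.

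The sequences that follow were taken at starts and listed regions of Pth1r, Snai1 and Plat, from GRCm38. Whether any pattern depends on them was not tested. They are the 250 bases before the outer and the inner start of Pth1r and before the start of Snai1, taken from RefSeq (GRCm38.p6), and 300 bases of 3 listed H3K4me1 regions, taken from the genome sequence around the median position of the peaks' maxima. Capitals mark matches on either strand to GATAA (bound by GATA factors), ACAANG (SOX factors), TGANTCA (AP-1), ATGCAAAT (octamer) and GGGCGG (GC box). RefSeq promoters were matched for Snai1, Pth1r and Vim, which is 3 of the 5 genes. The Vim promoter window lies in an annotated exon and is not printed, and Thbd and Plat are named only. Pth1r matched 3 RefSeq promoters, of which only those of the outer and the inner start printed here lay clear of annotated exons.
Pth1r outer start, chr9:110747146-110747395, minus strand: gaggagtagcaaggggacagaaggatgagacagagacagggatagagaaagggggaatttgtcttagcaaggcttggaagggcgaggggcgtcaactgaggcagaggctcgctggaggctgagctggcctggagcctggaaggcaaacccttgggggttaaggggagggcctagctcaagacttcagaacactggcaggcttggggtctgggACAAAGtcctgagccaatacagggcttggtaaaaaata
Pth1r inner start, chr9:110743687-110743936, minus strand: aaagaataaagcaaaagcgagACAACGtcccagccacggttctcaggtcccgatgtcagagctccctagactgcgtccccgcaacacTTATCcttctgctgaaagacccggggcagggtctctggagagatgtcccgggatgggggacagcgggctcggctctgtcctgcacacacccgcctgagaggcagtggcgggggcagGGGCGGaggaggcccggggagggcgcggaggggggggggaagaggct
Pth1r upstream H3K4me1 region, chr9:110753178-110753477, plus strand: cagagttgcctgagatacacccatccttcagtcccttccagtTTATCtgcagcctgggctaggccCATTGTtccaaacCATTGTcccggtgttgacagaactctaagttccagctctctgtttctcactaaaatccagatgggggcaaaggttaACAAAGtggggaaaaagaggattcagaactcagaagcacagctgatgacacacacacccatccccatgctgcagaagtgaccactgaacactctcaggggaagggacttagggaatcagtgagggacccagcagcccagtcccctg
Snai1 start, chr2:167537945-167538194, plus strand: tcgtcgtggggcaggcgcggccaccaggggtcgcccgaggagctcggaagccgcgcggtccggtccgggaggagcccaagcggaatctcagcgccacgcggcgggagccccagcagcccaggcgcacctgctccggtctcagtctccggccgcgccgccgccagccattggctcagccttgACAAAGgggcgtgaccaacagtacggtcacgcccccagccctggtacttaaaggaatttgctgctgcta
Snai1 downstream H3K4me1 region, chr2:167559651-167559950, plus strand: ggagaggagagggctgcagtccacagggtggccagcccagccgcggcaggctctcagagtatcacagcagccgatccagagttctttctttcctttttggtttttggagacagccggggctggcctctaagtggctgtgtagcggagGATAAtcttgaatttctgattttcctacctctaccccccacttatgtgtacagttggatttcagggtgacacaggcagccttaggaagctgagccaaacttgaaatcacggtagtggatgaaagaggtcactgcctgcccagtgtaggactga
Plat intron H3K4me1 region, chr8:22766242-22766541, plus strand: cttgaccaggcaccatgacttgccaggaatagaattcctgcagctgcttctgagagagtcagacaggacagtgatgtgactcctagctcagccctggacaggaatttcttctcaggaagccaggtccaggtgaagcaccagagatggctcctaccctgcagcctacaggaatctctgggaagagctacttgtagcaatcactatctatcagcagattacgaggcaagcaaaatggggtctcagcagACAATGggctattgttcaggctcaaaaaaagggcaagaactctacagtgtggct

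The inner Pth1r start was the richer in CpG dinucleotides, with 16 in 250 bases against 3 before the outer start, and a median of 6 over 32807 RefSeq promoters. It held 1 match to GATAA, 1 match to ACAANG and 1 match to GGGCGG, the outer start 1 match to ACAANG, and the upstream region 3 matches to ACAANG and 1 to GATAA, which lie apart from each other. The Snai1 start held 27 CpG and 1 match to ACAANG, the Snai1 downstream region 1 match to GATAA and the Plat intron region 1 match to ACAANG. Among all RefSeq promoters cut to the same 250 bases, 22.6% held GATAA, 36.3% ACAANG, 6.75% TGANTCA, 1.60% ATGCAAAT and 32.7% GGGCGG. Among 68622 windows of 300 bases at the maxima of all H3K4me1 peaks, the shares were 38.1%, 54.2%, 10.7%, 1.84% and 15.7%. TGANTCA and ATGCAAAT had no match in the 6 printed windows, and the matches found are letters in a window, not measured binding.

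Pth1r lies at chr9:110722085-110747145 on the minus strand, and its window of 65.1 kb held 44 of the 116 peaks, the most of any of the 5 genes. Myl3, which encodes a myosin light chain, starts within the Pth1r gene body on the opposite strand and runs on upstream, so the peaks in that stretch, which include those over the inner Pth1r starts and the start of Myl3, cannot be assigned to one of the genes by position. Of the 6 annotated Pth1r transcripts, 3 start within 89 bases of the outer start and 3 start 3.46 to 4.43 kb into the gene.

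For H3K27ac, the bases chr9:110739421-110744709, 5289 bases that lie 2.44 to 7.72 kb into the gene and contain the 3 inner transcript starts, were listed in every DP and every Pdgfra+ library. The peaks that covered them had total signals (fragment coverage summed over bases) of 65645, 22906 and 115784 in DP replicates 1 to 3 and of 83350, 24197 and 78419 in Pdgfra+ replicates 1 to 3. They were strong for their lists, at percentiles of total signal of 96.6, 75.2 and 99.0 in DP and 95.4, 91.9 and 93.4 in Pdgfra+. No Oct4+ library listed a peak there, although the Oct4+ lists held 38619, 65131 and 8574 H3K27ac peaks against 3079 to 12244 in the other populations. Among the 16069 genes with H3K27ac peaks in at least 2 libraries, 7.6% had any bases listed in this way.

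For H3K27me3, the order of the populations was the opposite. The bases chr9:110740811-110746187 were listed in all 3 Oct4+ libraries, in peaks of 5377, 9209 and 27489 bases, at percentiles of 94.6, 94.9 and 98.8 of their lists. These 5377 bases reach from 0.958 to 6.33 kb into the gene and again contain the 3 inner starts, and 74 more bases 13.4 to 13.5 kb into the gene had the same pattern. No DP or Pdgfra+ library listed H3K27me3 at either place. Their lists held 3798, 8672 and 6418 peaks in DP and 1143, 2841 and 6151 in Pdgfra+, against 1629, 2948 and 5785 in Oct4+, so that 3 of the 6 were longer than every Oct4+ list and 3 were shorter than that of Oct4+ replicate 3. Among 8101 genes with H3K27me3 peaks in at least 2 libraries, 1.72% had bases listed in 3 of 3 Oct4+ and 0 of 6 other libraries.

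The acetylated and the H3K27me3 bases overlapped over 3899 bases, chr9:110740811-110744709, which hold the inner Pth1r start whose sequence is printed above, and the start of Myl3. Both conditions on the same bases were met at 10 of the 6788 genes measured for both marks (0.147%), and this combination was chosen after the values were seen. The 10 genes lie at 7 separate loci and included Pth1r with its neighbour Myl3, Col4a1 and Col4a2, which encode the type IV collagen of basement membrane, P3h2, a collagen prolyl hydroxylase, Sox7, an endoderm transcription factor, Podxl, Fam114a1 and Tlr6. The pattern at Pth1r, with all 3899 bases, was also found with each H3K27ac and H3K27me3 list cut to an equal number of peaks and with the 50% of each list's peaks that had the highest total signal. It was lost when 1 common threshold of total signal was set for all lists of a mark, which left 100 to 5108 H3K27ac and 0 to 3798 H3K27me3 peaks per list, and these 3 settings were chosen after the data were seen.

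**Figure D1:**
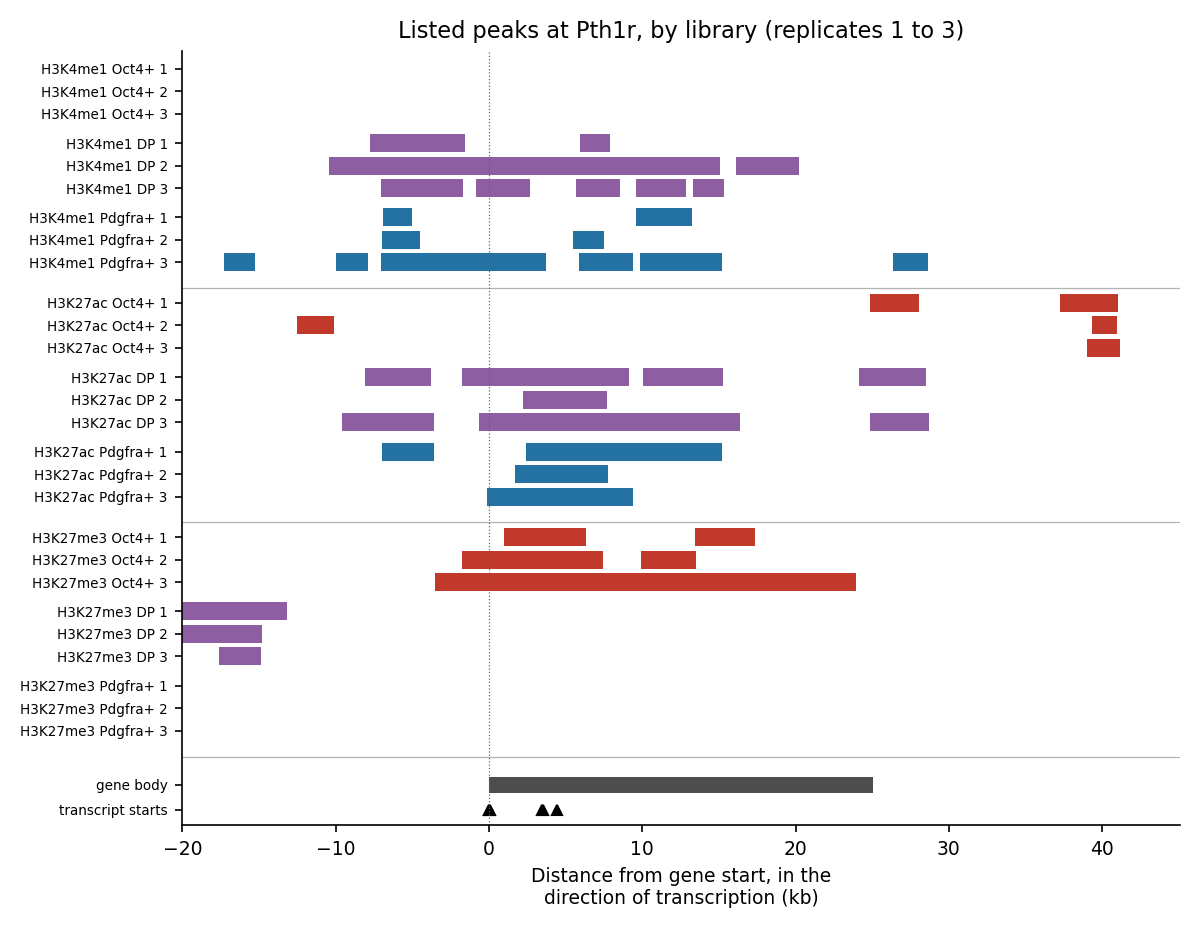
Listed peaks of H3K4me1, H3K27ac and H3K27me3 at Pth1r, 1 row per library, against the distance from the gene's start in kb in the direction of transcription; bars are peaks in Oct4+ (red), DP (purple) and Pdgfra+ (blue), the grey bar is the gene body and triangles are annotated transcript starts. H3K27ac of DP and Pdgfra+ and H3K27me3 of Oct4+ share 3899 bases over the inner starts, and the H3K4me1 rows of Oct4+ are empty.

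H3K4me1 was listed at Pth1r in 6 of 6 DP and Pdgfra+ libraries and in no Oct4+ library. The covered share of the window was 12.5, 45.5 and 26.1% in DP replicates 1 to 3, 8.48, 6.94 and 40.0% in Pdgfra+ replicates 1 to 3 and 0% in each Oct4+ replicate. The DP and Pdgfra+ values overlapped each other, and both lay above all Oct4+ values, which was the case for 7.76% (DP) and 0.814% (Pdgfra+) of the 10931 genes measured. These shares of genes depended on the setting. They were 10.1 and 7.52% of 2645 genes with an equal number of peaks per list. After scaling to the library mean they were 12.6 and 3.52%. The lists of Pdgfra+ replicates 1 and 2 were the shortest of this mark, with 1723 and 1074 peaks against 4127 to 16057 in Oct4+. The mean shares were 28.1 ± 16.6% in DP, 18.5 ± 18.6% in Pdgfra+ and 0% in Oct4+ (SD, n = 3), and the omnibus difference did not pass (exact permutation p = 0.0929, adjusted p = 0.614).

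The region common to the 6 lists was chr9:110752170-110754066, 1897 bases in an intron of Myl3. In every one of these libraries it lay in the H3K4me1 peak with the highest total signal in the window, at percentiles of total signal of 99.0, 99.7 and 96.6 in DP and 66.8, 87.2 and 99.7 in Pdgfra+. H3K27ac peaks overlapped it in DP replicates 1 and 3 and in Pdgfra+ replicate 1, and in no Oct4+ library. Bases with H3K4me1 in all 6 DP and Pdgfra+ libraries and in no Oct4+ library were found at 1.73% of genes measured. The region had the same 1897 bases with an equal number of peaks per list and with the 50% of peaks of highest signal, and was lost under the common threshold, which left 2 to 11874 H3K4me1 peaks per list.

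Over the whole Pth1r window, H3K27ac covered 10.7, 6.18 and 3.31% in Oct4+, 38.1, 8.47 and 41.4% in DP and 24.8, 9.34 and 14.6% in Pdgfra+ (replicates 1 to 3). The 2 lowest endoderm values, DP replicate 2 and Pdgfra+ replicate 2, lay below Oct4+ replicate 1, so the populations overlapped (every DP value lay above every Oct4+ value at 0.79% of all genes measured, and every Pdgfra+ value at 0.952%). The Oct4+ peaks lay elsewhere in the window, and the only bases shared by its 3 libraries, chr9:110706208-110707800, were inside Ccdc12 beyond the 3' end of Pth1r, a pattern with H3K27ac in 3 of 3 Oct4+ and 0 of 6 others that 16.7% of genes had. Within the gene body alone, every DP and every Pdgfra+ value lay above every Oct4+ value, which 2% and 2.41% of genes showed. The omnibus test over the window did not pass (exact permutation p = 0.104, adjusted p = 0.466).

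H3K27me3 covered 14.3, 19.7 and 42.3% of the Pth1r window in Oct4+, 10.5, 7.97 and 4.21% in DP and 0% in each Pdgfra+ replicate. The 3 populations did not overlap in any pair. Oct4+ above DP was found at 0.815% of genes, Oct4+ above Pdgfra+ at 4.02% and DP above Pdgfra+ at 17.9%. With an equal number of peaks per list, these shares were 4.96, 8.17 and 15.7% of 3269 genes. After scaling to the library mean they were 10.6, 10.1 and 15.7%. The exact permutation p of 0.00357 was the smallest that 1680 assignments of 9 libraries can give, and the p adjusted over 8101 genes was 0.461. The DP peaks were not those of Oct4+, since they lay 14.9 to 17.6 kb upstream at their shared bases, chr9:110762009-110764744, within Myl3 (3 of 3 DP and 0 of 6 others, found at 15.7% of genes), and ran on to 28.9 kb upstream in DP replicate 1. In the gene body alone the step from DP to Pdgfra+ was gone and both were at 0%.

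At the outer Pth1r start, promoter peaks (1 kb upstream to 100 bases downstream) were listed for H3K27ac in DP replicates 1 and 3 and Pdgfra+ replicate 3, for H3K4me1 in DP replicates 2 and 3 and Pdgfra+ replicate 3, and for H3K27me3 in Oct4+ replicates 2 and 3. At the inner starts, H3K27ac was listed in 3 of 3 DP, 3 of 3 Pdgfra+ and 0 of 3 Oct4+ libraries and H3K27me3 in 0, 0 and 3. The outer start alone thus missed 3 of the 6 acetylated libraries and 1 of the 3 H3K27me3 libraries. H3K9me3 was listed nowhere in the window.

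Snai1, at chr2:167538195-167542814 on the plus strand, was second in number of peaks, with 29, of which 19 were H3K4me1. H3K4me1 covered 13.8, 27.9 and 12.1% of its window in Oct4+, 0, 54.9 and 32.1% in DP and 0, 0 and 17.5% in Pdgfra+. All 3 Oct4+ libraries, 2 DP libraries and 1 Pdgfra+ library listed the mark, and the values overlapped between every pair of populations (exact permutation p = 0.357, adjusted p = 0.70). In DP replicate 2 a single peak of 19055 bases ran from 9.75 kb upstream to 9.31 kb downstream of the start, at percentile 98.9 of its list. In DP replicate 3 a peak of 8874 bases, at percentile 99.3, ended 0.249 kb past the start.

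One H3K4me1 stretch at Snai1 was listed in 3 of 3 Oct4+ and 0 of 6 other libraries, chr2:167559357-167560700, 21.2 to 22.5 kb downstream of the start and outside any protein-coding gene. This stretch was bounded by DP peaks, since the DP replicate 2 peak began 1 base after its end and the DP replicate 3 peaks ended 0.232 kb before it and began 0.629 kb after it. Such bases were found at 13.5% of genes measured, and the stretch was lost in each of the 3 settings that shortened the lists. H3K27me3 peaks covered it in Oct4+ replicate 3 and Pdgfra+ replicate 3.

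H3K27ac at Snai1 covered 0, 8.43 and 0% in Oct4+, 14.4, 0 and 21.2% in DP and 19.6, 0 and 0% in Pdgfra+. Of the 6 peaks, 5 lay over the gene and 1, in DP replicate 3, lay 5.56 to 8.64 kb upstream of the start. Promoter peaks were listed in Oct4+ replicate 2, DP replicates 1 and 3 and Pdgfra+ replicate 1, and those of DP and Pdgfra+ spanned 6410, 6383 and 8739 bases. The covered shares overlapped between every pair of populations (exact permutation p = 0.571, adjusted p = 0.744). H3K27me3 covered 20.4% in Oct4+ replicate 3 and 7.81% in Pdgfra+ replicate 3 and 0% in the other 7 libraries, and only the former had a promoter peak. The 1 H3K9me3 peak, in Oct4+ replicate 1, overlapped the window's edge by 0.0269% of its length.

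Plat, at chr8:22757727-22782844 on the plus strand, had 17 peaks. H3K4me1 covered 0, 2.28 and 0% of its window in Oct4+, 0, 9.62 and 3.43% in DP and 2.44, 0 and 14.8% in Pdgfra+. Values of the populations overlapped (exact permutation p = 0.529, adjusted p = 0.791), and peaks fell at 2 places. Around the start, Oct4+ replicate 2, DP replicate 2 and Pdgfra+ replicate 3 had peaks. In an intron, the bases chr8:22765855-22767336 were listed in DP replicate 3 and Pdgfra+ replicates 1 and 3 and in no Oct4+ library, and 300 of these bases, around the median of the peaks' maxima, are printed above.

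H3K27ac at the Plat start was listed in DP replicate 3 and Pdgfra+ replicates 1 and 2, at percentiles 53.3, 25.3 and 1.22 of their lists, and in no Oct4+ library. The 5 Oct4+ peaks of the window lay at other places, 4 of them in replicate 2, whose list of 65131 peaks was the longest of all. Over the window H3K27ac covered 0, 12 and 0.874% in Oct4+, 0, 0 and 5.84% in DP and 7.81, 2.42 and 0% in Pdgfra+, so that the direction depended on the part of the window counted (exact permutation p = 0.829, adjusted p = 0.917). H3K27me3 had no listed peak at the start. It was listed upstream, between 4.25 and 13.2 kb from the start, in Oct4+ replicate 3 and DP replicates 2 and 3, with 8.28, 13.8 and 4.75% of the window covered, and in no Pdgfra+ library (exact permutation p = 0.464, adjusted p = 0.680).

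Thbd, at chr2:148404466-148408188 on the minus strand, shares its window with Sstr4, a somatostatin receptor gene that starts within it. It was the member of the 5 with the most repressive peaks, 7 of H3K27me3 and 8 of H3K9me3 among 19. H3K27me3 covered 0, 16.7 and 20.4% in Oct4+, 0, 15.1 and 6.02% in DP and 0% in each Pdgfra+ library. The peaks recurred at 2 places, over the start and gene body in Oct4+ replicates 2 and 3 and DP replicate 2, and 9.42 to 13.5 kb downstream of the start, beyond the gene's end, in the same libraries and DP replicate 3, where all 4 peaks covered the start of Sstr4. Oct4+ replicate 1 and DP replicate 1 listed none, so that neither population separated from Pdgfra+ (exact permutation p = 0.214, adjusted p = 0.539).

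H3K9me3 at Thbd was found in all 3 populations. It covered 7.67, 7.59 and 0% in Oct4+, 4.06, 4.24 and 8.16% in DP and 7.46, 0 and 0% in Pdgfra+, so the populations overlapped (exact permutation p = 0.561, adjusted p = 0.844). Its peaks again recurred at 2 places upstream of the gene, 1.12 to 2.62 kb from the start in 5 libraries and 7.35 to 8.51 kb from it in 3. Thbd was the only gene of the 5 tested for H3K9me3, since the other 4 had at most 1 library with a peak. Active marks were rare at Thbd. H3K27ac over the start was listed in DP replicate 3 and H3K4me1 in Pdgfra+ replicate 3, while the 1 Oct4+ H3K27ac peak ended 17.4 kb upstream of the start.

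Vim, at chr2:13573927-13582826 on the plus strand, had 7 peaks, of which 6 lay over its start. H3K4me1 was listed there in Oct4+ replicate 2, DP replicates 2 and 3 and Pdgfra+ replicate 3, with 5.96, 12.6, 10.04 and 5.70% of the window covered (exact permutation p = 0.464, adjusted p = 0.726). H3K27ac was listed over the start in Oct4+ replicates 1 and 2 and in no DP or Pdgfra+ library, and covered 6.18, 5.15 and 0% in Oct4+ (exact permutation p = 0.250, adjusted p = 0.466). The 2 active marks thus differed in the populations that listed them, without a separation of the populations. No H3K27me3 or H3K9me3 peak was listed at Vim in any of the 18 libraries.

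**Figure D2:**
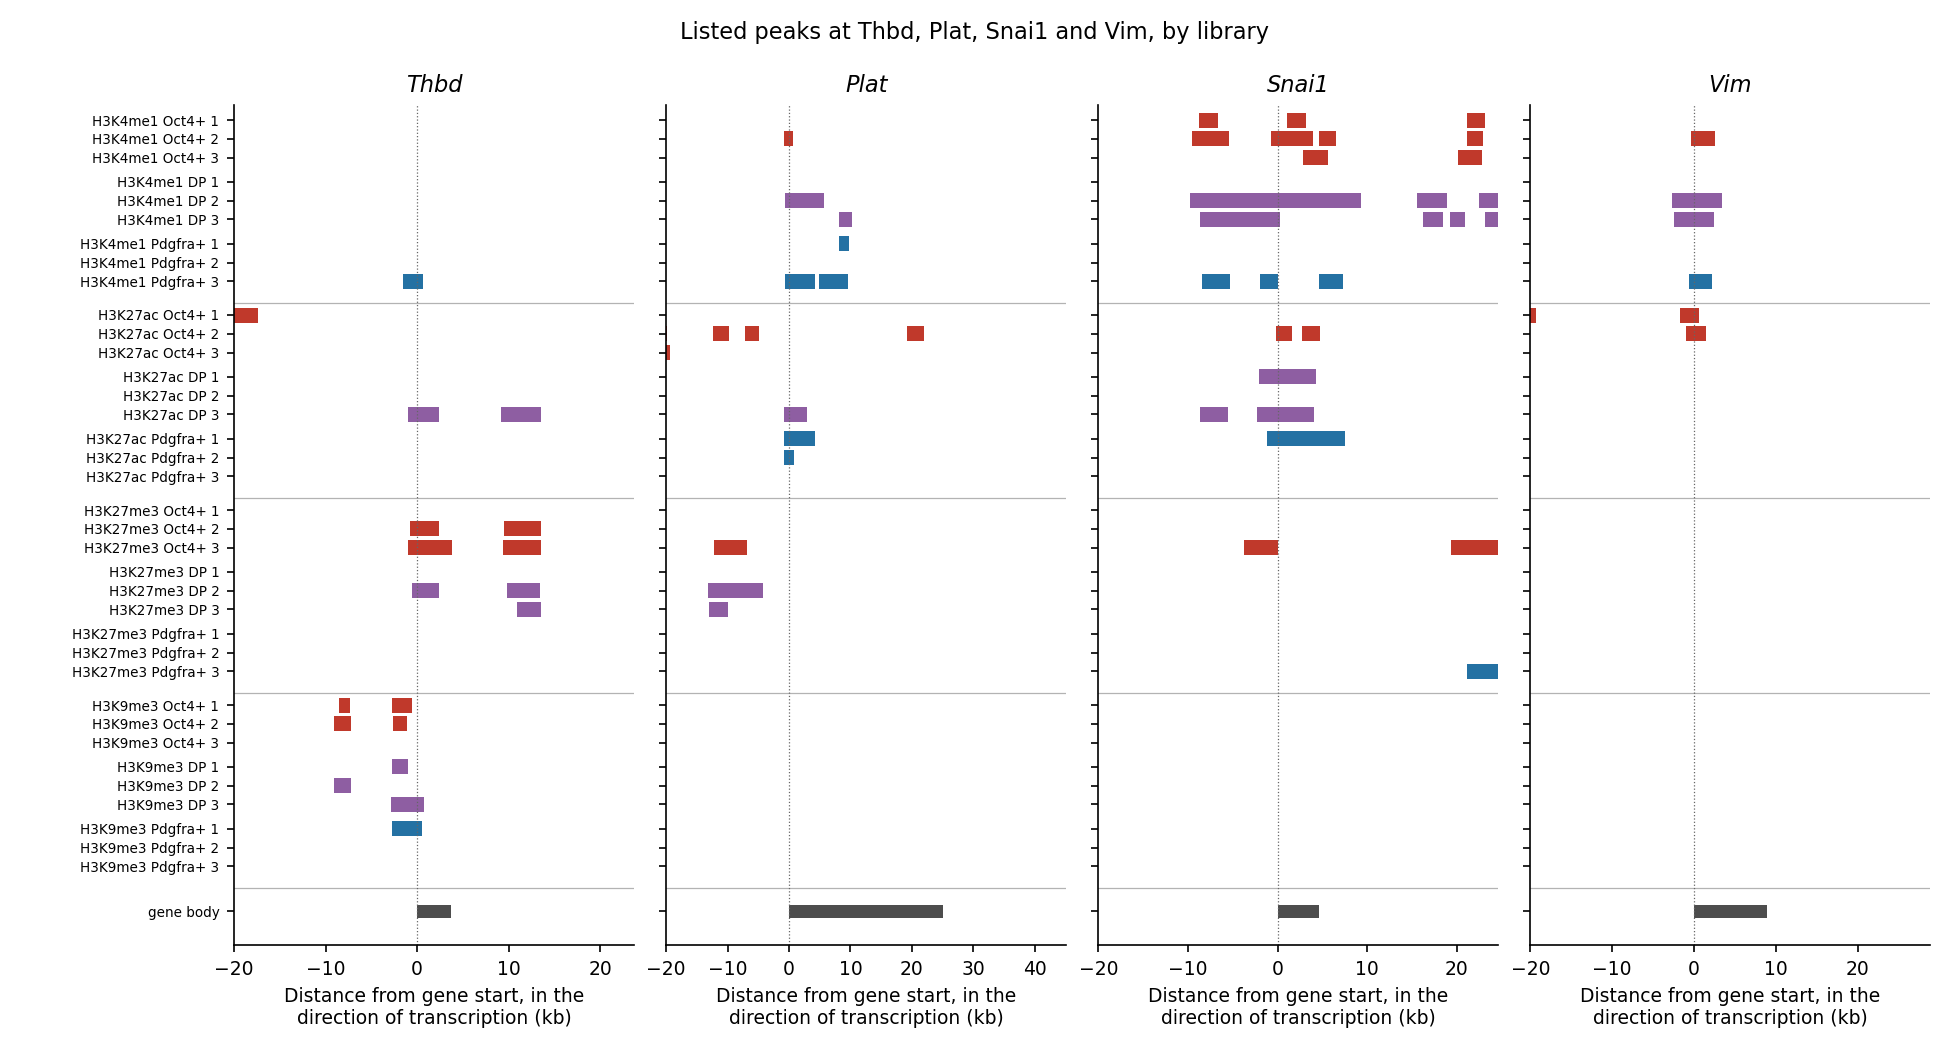
Listed peaks of the 4 marks at Thbd, Plat, Snai1 and Vim, 1 row per library, against the distance from each gene's start in kb in the direction of transcription, with Oct4+ red, DP purple, Pdgfra+ blue and the gene body grey. Peaks are cut at the window's ends, and no row pattern other than the H3K4me1 peak at the right end of Snai1 separates a population from both others. Bases with that pattern were found at 13.5% of genes measured. Those at Snai1 were bounded by DP peaks and were lost in each setting that shortened the lists.

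The covered shares of the 5 windows are set side by side by mark and population. By H3K4me1 in DP, Snai1 (29.0 ± 27.6%) and Pth1r (28.1 ± 16.6%) came first, followed by Vim (7.54 ± 6.65%), Plat (4.35 ± 4.87%) and Thbd (0%). By H3K27ac in Pdgfra+ the order was Pth1r (16.2 ± 7.85%), Snai1 (6.53 ± 11.3%), Plat (3.41 ± 4.0%) and then Vim and Thbd at 0%. By H3K27me3 in Oct4+ it was Pth1r (25.4 ± 14.8%), Thbd (12.4 ± 10.9%), Snai1 (6.82 ± 11.8%), Plat (2.76 ± 4.78%) and Vim (0%). All are means and SD of 3 libraries, and in each of these orders the ranges of a gene and the next overlapped or tied at 0%. The genes were measured in the same libraries, however. Compared library by library, Pth1r lay above Vim by H3K4me1 in every DP library and above Snai1 by H3K27ac in every Pdgfra+ library. By H3K27me3 it lay above Thbd in every Oct4+ library. Differences between genes were not tested. The number of fragments behind each list is unknown.

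**Figure D3:**
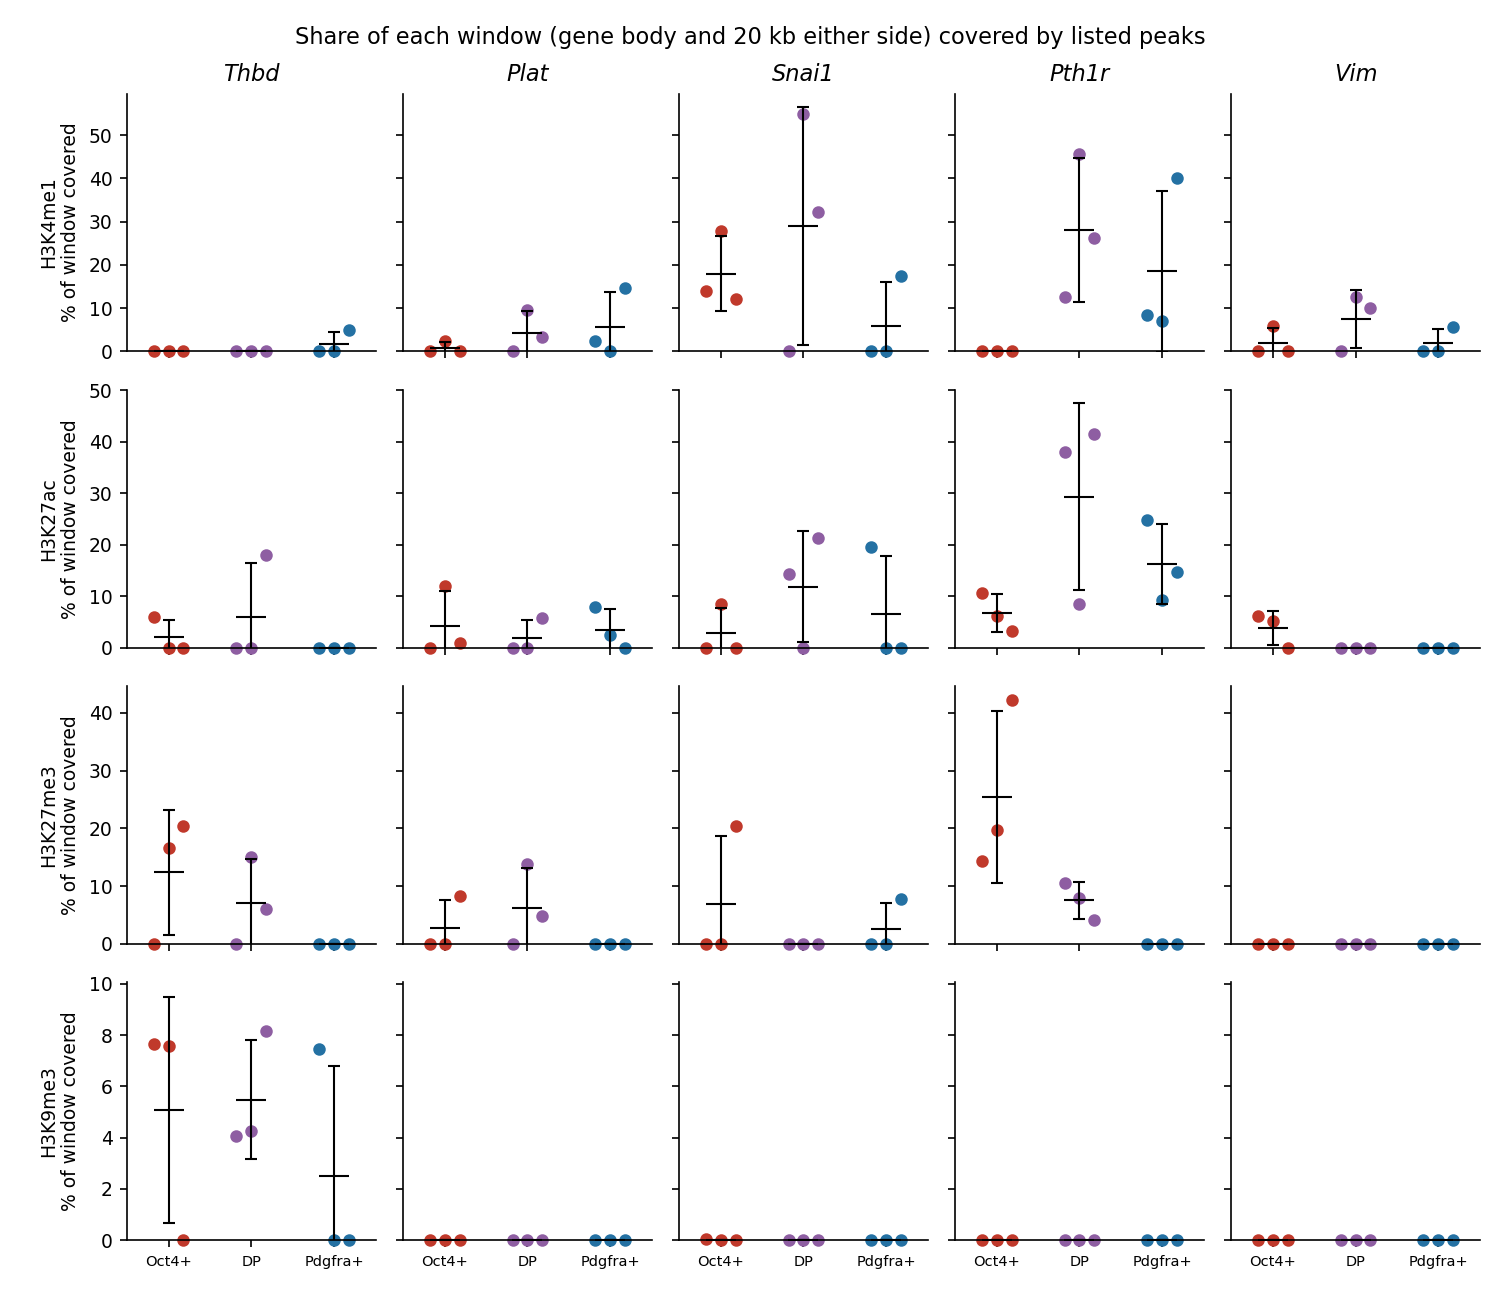
Share of each window covered by listed peaks (%), by gene (columns) and mark (rows), with 1 point per library and the mean and SD of 3 libraries as bars, drawn from 0 upward. For Pth1r the H3K27me3 points of the 3 populations are separate and the H3K4me1 points of Oct4+ lie at 0%, whereas the other genes overlap.

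By the promoter at the annotated gene start, H3K4me1 peaks in at least 2 of 3 libraries were found at 0 of 5 genes in Oct4+, 3 in DP (Snai1, Pth1r and Vim) and 0 in Pdgfra+, against 3.49, 5.42 and 0.588% of all protein-coding genes. For H3K27ac the counts were 1 in Oct4+ (Vim), 2 in DP (Snai1 and Pth1r) and 1 in Pdgfra+ (Plat), against 31.9, 30.3 and 18.4%. For H3K27me3 they were 2 in Oct4+ (Thbd and Pth1r), 0 in DP and 0 in Pdgfra+, against 9.12, 14.6 and 5.37%, and for H3K9me3 0, 1 (Thbd in DP) and 0, against 1.27, 0.912 and 0.948%. The 5 genes did not share a promoter pattern over replicates, and the only library with a promoter peak at all 5 was H3K4me1 of Pdgfra+ replicate 3.

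Across all genes, the exact omnibus permutation test with Benjamini-Hochberg adjustment called 0 of the 5 genes for any mark, and 0 of the genes tested in all (0%). At an unadjusted p under 0.05, H3K4me1 differed at 833 of 10931 genes (7.62%) and 0 of 4 members tested, H3K27ac at 1624 of 16069 (10.1%) and 0 of 5, H3K27me3 at 714 of 8101 (8.81%) and 1 of 4 (Pth1r), and H3K9me3 at 1654 of 10931 (15.1%) and 0 of 1. With 9 libraries a mark, genes pass the adjusted threshold together, once enough of them have a small p. Between 579 (H3K27me3) and 1148 (H3K27ac) genes at the smallest possible p would have been enough, and 18 to 91 had that p. At larger p, more genes would have been needed. A pair of populations cannot go below an exact two-sided p of 0.10. These are sorted cell populations, so that fewer cells with a mark and less of the mark in each cell cannot be told apart.

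Promoters of marker genes were compared with the labels. Of 8 pluripotent markers, 7 had a promoter H3K27ac peak in at least 2 of 3 libraries in Oct4+, 1 in DP and 1 in Pdgfra+, and of 8 endoderm markers 2, 7 and 6. Oct4+ cells thus carried more pluripotent and fewer endoderm markers than the others, whereas DP and Pdgfra+ cells had similar counts. The promoter of Pou5f1, which encodes OCT4, had H3K27ac in 3 Oct4+ libraries, 1 DP library and 1 Pdgfra+ library, the same count in both PDGFRA-positive populations. Of 6 trophectoderm markers, 2, 1 and 1 had one. Of all protein-coding genes, 31.9, 30.3 and 18.4% had one in Oct4+, DP and Pdgfra+. Lists ranged from 1074 peaks (H3K4me1, Pdgfra+ replicate 2) to 65131 (H3K27ac, Oct4+ replicate 2), and no lists were identical. List length moved with population for H3K27ac. With an equal number of H3K27ac peaks per list, the mean of Pdgfra+ minus that of Oct4+ went from -2.00 to 0 percentage points of the window at Thbd, from -0.883 to 0 at Plat and from -3.78 to 0 at Vim, and from 3.72 to 6.53 at Snai1 and 9.52 to 14.5 at Pth1r.

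Genes of related function were described for comparison. Of 16 other parietal endoderm genes (basement membrane components such as Lama1 and Nid1, and endoderm regulators), 7 had a promoter H3K27ac peak in Oct4+, 12 in DP and 10 in Pdgfra+, and 6, 1 and 0 had one of H3K27me3. Over all protein-coding genes, the shares were 31.9, 30.3 and 18.4% for H3K27ac and 9.12, 14.6 and 5.37% for H3K27me3. Of the 16 genes, 3 (Sox7, and Col4a1 and Col4a2, which adjoin at the same locus) met the combined condition, as Pth1r did. This was H3K27ac in 6 of 6 DP and Pdgfra+ and H3K27me3 in 3 of 3 Oct4+ libraries on the same bases. The condition was also met by 1 of 16 visceral endoderm genes. Of the other parietal endoderm genes, 0 of 16 passed the adjusted test for any mark. At an unadjusted p under 0.05 the exact test gave 1 of 15 tested for H3K4me1, 3 of 16 for H3K27ac, 5 of 9 for H3K27me3 and 0 of 5 for H3K9me3, beside 7.62, 10.1, 8.81 and 15.1% of all genes.

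Genes related to the single members, and those of the sister tissue, were counted in the same way. Of 10 other genes of parathyroid hormone receptor signalling (ligands, G proteins and effectors), 3, 3 and 1 had a promoter H3K27ac peak in Oct4+, DP and Pdgfra+ and 2, 1 and 1 one of H3K27me3. Of 12 plasminogen and coagulation genes, related to Plat and Thbd, 5, 5 and 5 had H3K27ac and 2, 1 and 0 H3K27me3. Of 12 genes of the epithelial-mesenchymal transition, related to Snai1 and Vim, 4, 4 and 3 had H3K27ac and 4, 5 and 0 H3K27me3. Of 16 visceral endoderm genes, the sister tissue, 0, 6 and 3 had H3K27ac and 6, 4 and 1 H3K27me3. Over all protein-coding genes, the H3K27ac promoter shares were 31.9, 30.3 and 18.4% in the same order. Those of H3K27me3 were 9.12, 14.6 and 5.37%. None of the genes of these 4 lists passed the adjusted exact test for any mark. At an unadjusted p under 0.05 it gave, for H3K4me1, H3K27ac, H3K27me3 and H3K9me3 in this order, 0 of 6, 1 of 8, 0 of 5 and 1 of 3 receptor genes tested and 0 of 7, 1 of 10, 1 of 7 and 3 of 9 coagulation genes. For the transition genes it gave 0 of 7, 1 of 9, 0 of 8 and 0 of 7, and for the visceral genes 4 of 12, 2 of 13, 2 of 11 and 1 of 2. Over all genes tested, the shares at this p were 7.62, 10.1, 8.81 and 15.1%. Differences between the lists were not tested.

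**Figure D4:**
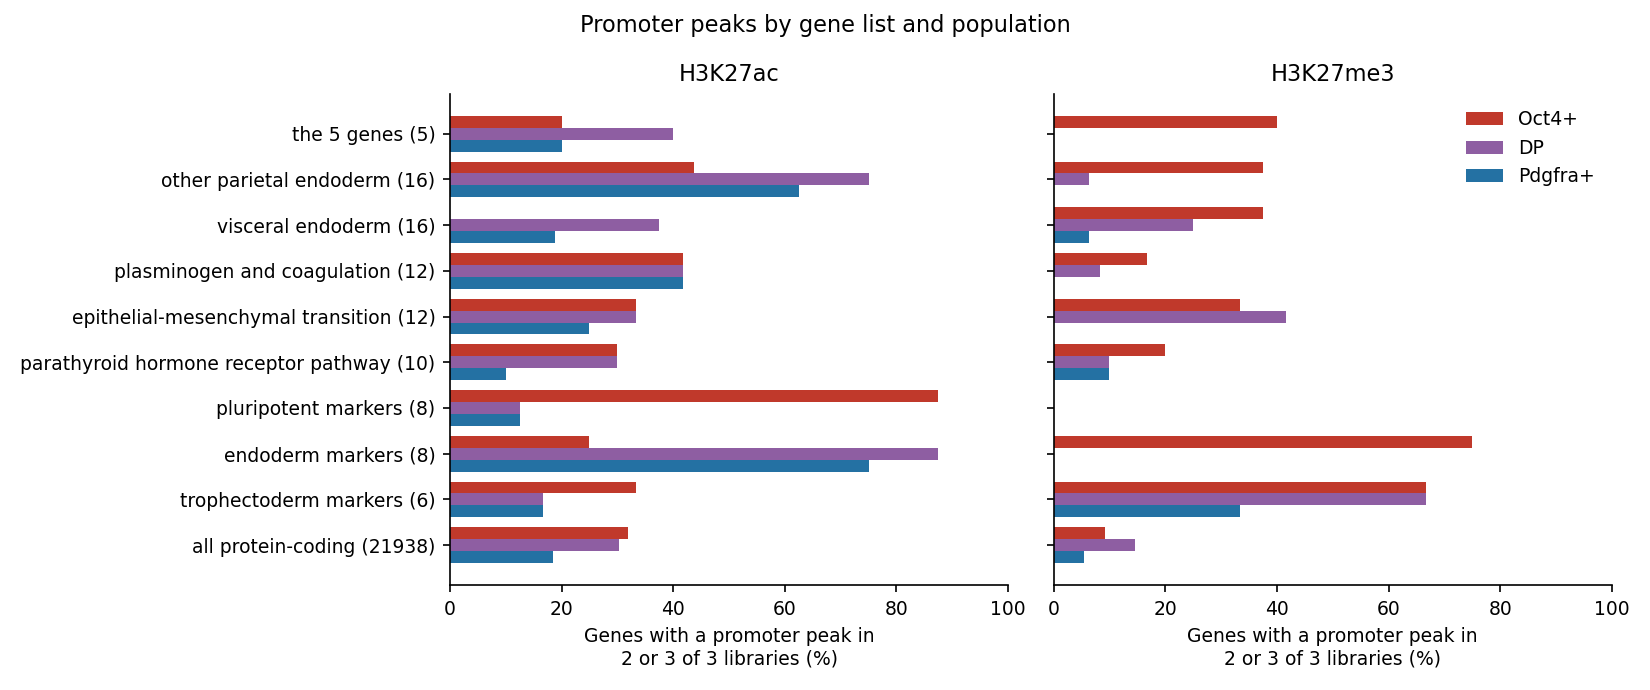
Share of genes (%) with a promoter peak in at least 2 of 3 libraries, for H3K27ac and H3K27me3, by gene list (number of genes in brackets) and population, with all protein-coding genes at the bottom. The 16 other parietal endoderm genes have 7, 12 and 10 H3K27ac promoters in Oct4+, DP and Pdgfra+, and the 5 genes have 1, 2 and 1.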

How the data were processed

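The authors ran SEACR (stringent setting) on BEDtools fragment coverage, with IgG as control, and deposited 1 list of peaks for each library. Per the labels, the build was mm10 (GRCm38), and the submitters' processing notes name bcl2fastq 2.19.1, Bowtie2, SAMtools 1.12, bedtools 2.26.0 and deepTools. The total and maximum signal in the deposited lists are whole numbers, not scaled to depth, and the normalization option of SEACR is not given in the sources used here. Depth is unknown, and absence from a list does not exclude a mark, so lists were compared by coverage (overlap of at least 1 base) and signal by its percentile within a list. The exception is the setting with 1 common threshold of total signal, which applied the same cut of unscaled signal to all lists of a mark.

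Genes were those of GENCODE vM21. For every protein-coding gene at which 2 or more of the 9 libraries listed a mark, the covered percent of the gene body and 20 kb either side was compared between populations through an exact permutation test (F statistic of 3 populations, 1680 assignments), adjusted after Benjamini and Hochberg over those genes, with a threshold of 0.05. The test and coverage were checked on simulated data and against bedtools 2.31.1, using Python 3.11.15, NumPy 2.4.6 and pandas 2.3.3. Libraries were not treated as paired by replicate number, since the labels do not say what it marks. Correlations between equal numbers ran from -0.566 to 0.623, which does not settle whether they were paired. Named were the 5 genes, genes of the lists called for a mark, neighbours that start in a window and the 3 genes whose coverage was most like each member; genes of the combined condition at Pth1r were named after their values were seen, and 1 of them is not reported here. The members and lists were chosen with earlier results of these data known.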

Additional observations from a re-analysis of the deposited data

How the results depend on the processing

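The count of members past the adjusted threshold was 0 for each mark under every one of 19 settings, the replicate block included (lowest adjusted p of any gene 0.245, 0.0756, 0.168 and 0.138 for H3K4me1, H3K27ac, H3K27me3 and H3K9me3). Of 195 alternative values that answer a comparison, 168 kept within 1.5 times the value reported and 27 did not, and the causes were not tested unless stated. Many of the 168 were counts of 0 that stayed at 0, among them every count past the adjusted threshold. The 168 are therefore no measure of stability. With an equal number of peaks per list, Pth1r H3K27ac of DP above Oct4+ and of Pdgfra+ above Oct4+ each went from 0 to 1 member, as they did after scaling to the library mean and in the gene body alone (16.6, 8.25 and 2% of genes for DP, 17.6, 12.3 and 2.41% for Pdgfra+). H3K27me3 of DP above Pdgfra+ went from 1 to 0 with equal numbers and in the gene body alone (15.7 and 15.6% of genes). H3K4me1 of Oct4+ above Pdgfra+ went from 0 to 1 (Snai1) in the gene body alone (11.6% of genes). Promoter counts with equal numbers became 1 (H3K4me1, DP), 0, 1 and 0 (H3K27ac, Oct4+, DP and Pdgfra+), 1 (H3K27me3, Oct4+) and 0 (H3K9me3, DP). With 2 kb either side of the start they became 1 for H3K4me1 of Oct4+ (Snai1), 2 for H3K27ac of Pdgfra+ (Plat and Pth1r) and 1 for H3K9me3 of Oct4+ (Thbd), and with any annotated transcript start 2 for H3K27ac of Pdgfra+ and 0 for H3K9me3 of DP. The bases that separated the populations at Pth1r and Snai1 were lost (0 members in all 5 patterns) under 1 common threshold of total signal, which left 2 to 11874 H3K4me1, 100 to 5108 H3K27ac and 0 to 3798 H3K27me3 peaks per list. The Snai1 stretch was also lost (0) with equal numbers and with the 50% of peaks of highest signal.

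Of 360 alternative values of single genes (Pdgfra+ minus Oct4+, percentage points of the window), 19 changed sign, none of them at Pth1r. Vim H3K4me1 (-0.0852 as reported) became 1.90 under the common threshold and with the 50% of peaks, 0.277 in units of the library mean, and ranged from -1.99 to 1.90 without 1 library each. Plat H3K27ac (-0.883) became 2.60 under the common threshold, 3.50 within 5 kb, 0.714 in units of the library mean and 2.96 in the gene body, and ranged from -3.08 to 2.97. Snai1 H3K27ac (3.72) became -6.14 within 50 kb and ranged from -2.81 to 6.98, and Snai1 H3K27me3 (-4.21) became 1.06 within 50 kb and ranged from -7.62 to 2.60. Thbd H3K9me3 (-2.60) became 0.810 under the common threshold and with the 50% of peaks and 4.80 in the gene body. Without 1 library each, Pth1r ranged from 7.71 to 24.2 for H3K4me1, 5.25 to 12.97 for H3K27ac and -31.0 to -17.0 for H3K27me3, the last with exact permutation p between 0.00357 and 0.0429. Leaving out H3K4me1 Pdgfra+ replicate 3, the longest list of its population, gave the 7.71. The replicate block changed no call.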

Other observations

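Over the 36 libraries, the protein-coding genes whose covered share was most like that of Pth1r were Ets1, an ETS family transcription factor (Pearson r = 0.923), Ptger4, a prostaglandin E2 receptor (0.915), and Pdgfra, the surface receptor used in the sort (0.911). For Snai1 they were B4galnt1 (0.920), Slc26a10 (0.915) and Arhgef25 (0.893), for Vim Vhl (0.956), Lamc1, the laminin gamma 1 chain of basement membrane (0.944), and Ly6g6f (0.931), for Plat Spns3 (0.874), BC017158 (0.844) and Mapkapk2 (0.816), and for Thbd Mboat1 (0.826), Fam50b (0.80) and Pik3ap1 (0.756). These r are descriptions, since the points share libraries, list lengths and marks. Many of the points were also at 0%. Vim lay at 0% in 5 of 9 H3K4me1 libraries, in 7 of 9 H3K27ac libraries and in every H3K27me3 and H3K9me3 library, so its r rest on few points.

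H3K4me1 above every Oct4+ library in every DP and Pdgfra+ library, together with H3K27me3 of every Oct4+ library above every Pdgfra+ library, was found at 7 of the 5312 genes measured for both marks (0.132%), and this combination was chosen after the values were seen. They were Pth1r, its neighbour Myl3, Fhl2, Frmpd1, Lpar3, Ripor2 and D630045J12Rik.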
